A study of Mus musculus with 4 samples.

Results

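The genes of hepatic stellate cells and of the fibrotic matrix were examined in liver of aP2-SREBP-1c mice. These are 44 genes taken by symbol, among them 13 collagen chains, proteoglycans, matrix proteases and their inhibitors, TGF-beta and PDGF genes, contractile proteins and stellate cell markers. They were chosen for their known roles in stellate cells and matrix, with earlier results of these data known, and the rule takes them by gene symbol and uses no measured value. A probe set was assigned to 43 of these 44 genes, out of 19938 genes with a value. The microfibril gene Fbn1 was not analysed here. All 4 samples are livers of male mice of 1 genotype, labelled C57Bl6-TgN aP2-HA-hSREBP-1c-NT, with 1 array per mouse and 150 ng of RNA per array. In this line, the aP2 promoter drives the transcriptionally active N-terminal part of human SREBP-1c, with an HA tag, in adipocytes, and the animals are a lipodystrophy model with massive hepatic steatosis. The labels give an age of 24 weeks, regular laboratory chow and the same hour of killing for all animals, and do not say whether mice shared a litter. Liver arrays of the C57Bl6 and alb-SREBP-1c phenotypes were not analysed here. The data therefore give levels and their spread among the aP2-SREBP-1c animals, with no contrast of phenotypes and no tests. The SD and the range between mice hold the differences between animals and those of the arrays, which cannot be told apart with 1 array per mouse.

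Hepatic stellate cells lie between hepatocytes and sinusoidal endothelium and store vitamin A as retinyl esters. In chronic liver injury, they lose this store and become contractile myofibroblasts, which are the main source of fibrillar collagen in the scar. TGF-beta drives this transition and matrix synthesis, PDGF drives proliferation of the cells, and matrix metalloproteinases and their TIMP inhibitors set how fast the matrix is degraded. Several of the 44 genes are also made by other liver cells, such as Fn1 by hepatocytes and the basement membrane collagens by endothelium. In RNA of whole liver, fewer cells of a type and less RNA per cell cannot be told apart.

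The values are log2 expression values from RMA, which corrects the background of an array, normalizes the arrays to each other and combines the probes of a gene. As a background limit, the 95th percentile of the 1205 olfactory and vomeronasal receptor probe sets was used, and genes had to exceed it on every array. It lay at 5.52, 5.36, 5.35 and 5.33 in mice 1 to 4. Of the 43 stellate cell and matrix genes, 38 were above background, and so were 61.5% of all genes. The 5 others were Lum, Lox, Timp1, Tgfb2 and Hhip, of which Lox and Timp1 exceeded the limit on 0 arrays. Each of the 43 genes has 1 probe set, and levels of different probe sets are not ranked against each other. The labelled tissue was checked with 14 hepatocyte gene symbols, of which 10 were measured, all 10 above the limit, and their median SD was 0.06. Transferrin was listed as both Tf and Trf and was measured as Trf. Albumin (Alb) was at 14.29, 14.33, 14.37 and 14.31 in mice 1 to 4, and transthyretin (Ttr) averaged 14.06 ± 0.05 (SD, n = 4). Both lie close to the highest values of the arrays (14.48 to 14.53). The widest hepatocyte gene was Cyp2e1, with a mean of 13.26 ± 0.20 (SD, n = 4) and a 1.34-fold range. Of the 10 genes, 8 were lowest in mouse 1, against 46.2% of all genes above background. After quantile normalization of the arrays, 5 of the 10 were, against 36.1%. Over all genes above background, the sum of linear values was lowest in mouse 1, at 3713570, 4164990, 4270660 and 4092170 in mice 1 to 4. Results are therefore also given after quantile normalization of the 4 arrays where they depend on it.

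**Figure D1:**
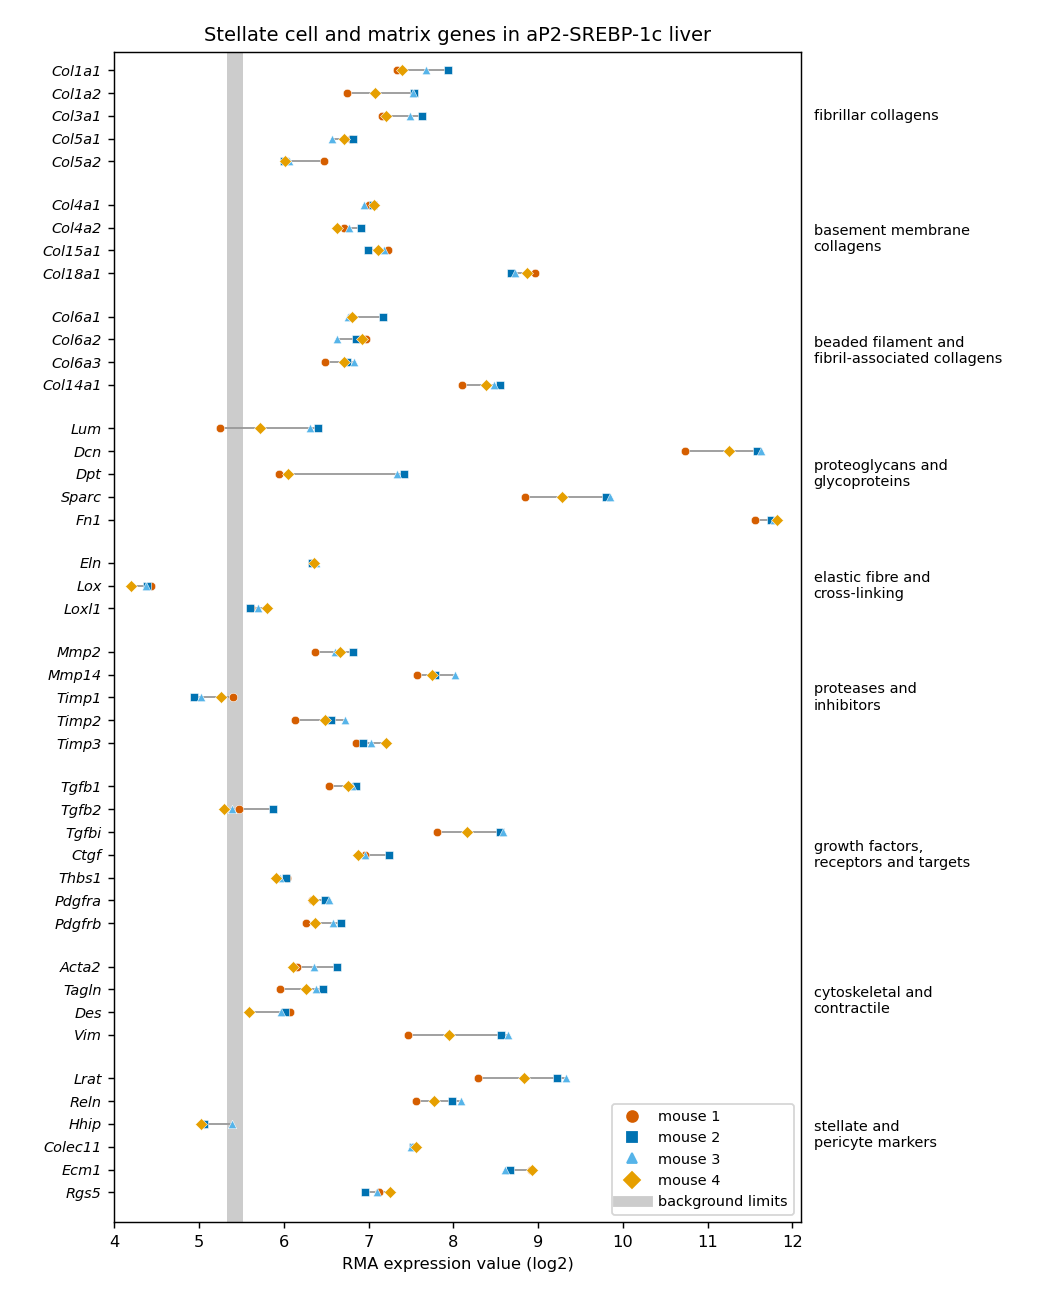
RMA expression value (log2, horizontal axis) of the 43 measured stellate cell and matrix genes (rows, by role) in the 4 aP2-SREBP-1c animals, with a symbol per mouse, a grey line over the range and a grey band over the background limits of the 4 arrays (5.33 to 5.52). Dpt, Vim, Lrat and Sparc span the widest ranges of the 38 genes above background, and Lox lies below the band in all mice.

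Between mice, 9 of the 38 genes above background had a range above 1.5-fold, taken as highest over lowest animal (23.7%), and 12.9% of all genes above background did so. The 9 genes were Dpt, Vim, Lrat, Sparc, Dcn, Tgfbi, Col1a2, Col1a1 and Timp2. In each of them, mouse 1 held the lowest and mouse 4 the next lowest value, and mice 2 and 3 were highest. Of all genes above background, 22.6% had mouse 1 lowest and mouse 4 next lowest. This share was not taken over the genes above 1.5-fold alone. More than 2-fold was reached by 4 genes (10.5%), against 1.13% of all genes, and an SD above 0.3 by 7 genes (18.4%), against 7.72%. The median SD of the 38 genes was 0.19, and that of all genes above background was 0.15. The range depended on mouse 1: without it, 3 of 39 genes (Lum, Dpt and Vim) exceeded 1.5-fold, which is 7.69%, against 2.71% of all genes. Leaving out another animal mattered less. Without mouse 2, 8 of 38 genes exceeded 1.5-fold (21.1%, against 10.5% of all genes), and Col1a1 no longer did. Without mouse 3, 8 of 38 genes exceeded it (21.1%, against 9.75%), and Timp2 no longer did. Without mouse 4, the same 9 of 38 genes exceeded it (23.7%, against 10.2%). After quantile normalization, 8 of the 38 genes exceeded 1.5-fold (21.1%, against 10.6% of all genes), and all 8 were among the 9. These 8 were still lowest in mouse 1 and next lowest in mouse 4, an order of 18.2% of all genes. Col1a1 then had a smaller range and was lowest in mouse 4.

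**Figure D2:**
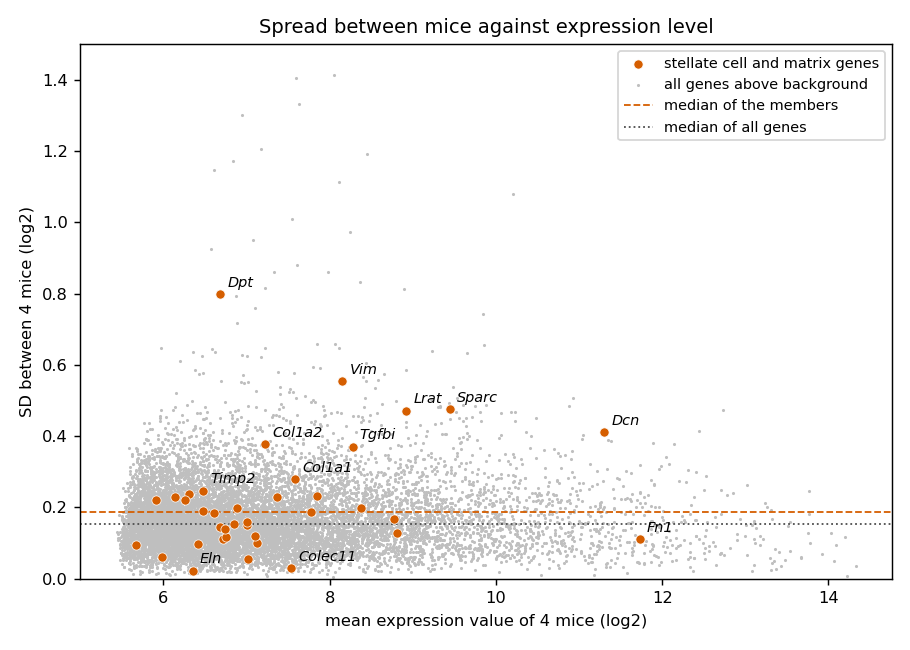
SD between the 4 mice (log2, vertical axis) against the mean expression value (log2, horizontal axis) for the 38 stellate cell and matrix genes (orange) and all 12254 genes above background (grey), with the median SD of each as a dashed (0.19) and a dotted line (0.15). The 9 genes with more than 1.5-fold between mice and 3 genes with small SDs (Fn1, Eln and Colec11) are named. Dpt has the largest SD of the orange points.

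The genes with the widest range belonged to several roles. Dpt encodes dermatopontin, a small matrix protein that binds decorin and collagen fibrils. Its values were 5.94, 7.41, 7.34 and 6.04 in mice 1 to 4, a 2.77-fold range. Mice 1 and 4 were close to each other and far from mice 2 and 3, with mouse 1 only 0.42 above its background limit. Vim encodes vimentin, the intermediate filament of mesenchymal cells, which endothelial and immune cells also contain. It was measured at 7.46, 8.56, 8.64 and 7.95, a 2.26-fold range. Lrat encodes lecithin retinol acyltransferase, the enzyme that forms the retinyl esters of stellate cell droplets. Its values were 8.29, 9.23, 9.33 and 8.84, a range of 1.04 on the log2 scale. For Vim and Lrat, mouse 4 lay between mouse 1 and the pair of mice 2 and 3. Sparc encodes a secreted matricellular protein that binds collagen. It was at 8.85, 9.80, 9.85 and 9.28 in mice 1 to 4, a 2.00-fold range with the same order of mice.

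Promoter sequences are shown for 6 of the 9 genes, whose values were lowest in mouse 1 and next lowest in mouse 4, and for the contractile gene Acta2, as the bases just upstream of genes in which mice 1 and 4 held both low values. They were taken from RefSeq (GRCm38.p6) and cover the 150 bases before the annotated start site, 5′ to 3′ on the strand of the gene. Windows were found for 30 of the 44 genes, some of them with a second start site, giving 32 windows. Capitals mark matches on either strand to CCAAT (the box bound by NF-Y), GGGCGG (the GC box bound by Sp1), TATAAA (where the TATA-binding protein sits), GGAATG (a motif of the TEAD family) or the CArG box of serum response factor with at most 1 base other than A or T in its centre. A CArG box can hold the letters of CCAAT, and no marked matches overlap here. The windows are Dpt (chr1:164796513-164796662, plus strand), Vim (chr2:13574161-13574310, plus strand), Lrat (chr3:82903975-82904124, minus strand), Sparc (chr11:55420081-55420230, minus strand), Tgfbi (chr13:56609436-56609585, plus strand), Col1a2 (chr6:4505468-4505617, plus strand) and Acta2 (chr19:34255374-34255523, minus strand).
Dpt: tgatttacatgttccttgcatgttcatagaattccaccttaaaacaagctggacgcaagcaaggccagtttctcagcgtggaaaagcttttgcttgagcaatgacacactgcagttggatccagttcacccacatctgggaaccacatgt
Vim: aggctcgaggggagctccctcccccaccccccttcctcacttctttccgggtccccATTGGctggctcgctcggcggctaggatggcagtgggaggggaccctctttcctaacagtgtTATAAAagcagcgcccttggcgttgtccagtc
Lrat: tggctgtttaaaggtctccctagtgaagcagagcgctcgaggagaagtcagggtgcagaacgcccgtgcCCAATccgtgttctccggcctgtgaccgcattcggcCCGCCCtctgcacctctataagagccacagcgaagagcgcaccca
Sparc: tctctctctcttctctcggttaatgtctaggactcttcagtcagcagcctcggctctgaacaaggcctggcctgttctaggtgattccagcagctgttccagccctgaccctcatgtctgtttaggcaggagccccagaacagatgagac
Tgfbi: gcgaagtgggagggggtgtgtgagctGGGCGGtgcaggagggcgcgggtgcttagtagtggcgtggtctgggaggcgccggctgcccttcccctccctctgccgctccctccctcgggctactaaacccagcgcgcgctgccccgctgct
Col1a2: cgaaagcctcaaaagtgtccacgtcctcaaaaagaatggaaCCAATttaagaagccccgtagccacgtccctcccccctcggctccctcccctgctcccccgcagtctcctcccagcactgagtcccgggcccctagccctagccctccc
Acta2: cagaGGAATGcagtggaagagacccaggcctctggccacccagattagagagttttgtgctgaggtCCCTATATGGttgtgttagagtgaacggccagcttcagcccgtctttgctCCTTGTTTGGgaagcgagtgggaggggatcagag
Vim holds a CCAAT box in the reverse direction 94 bases before the start site and a TATAAA 32 bases before it. In Lrat, CCAAT begins 81 bases and the reverse complement of GGGCGG 45 bases before the start site, and Tgfbi has GGGCGG 124 bases before it. Col1a2 has CCAAT 109 bases before its start site. Acta2 carries GGAATG at 146 bases and a CArG box at 84 and another at 34 bases before the start site. In the windows of Dpt and Sparc, none of these letters were found. Of the 32 windows of stellate cell and matrix genes, 8 held CCAAT (25%), 15 GGGCGG (46.9%), 4 TATAAA (12.5%), 3 GGAATG (9.38%) and 3 a CArG box (9.38%). Among all 32851 windows of this length, these shares were 24.5%, 28.6%, 7.57%, 7.59% and 5.1%. The matches describe letters only, and no motif was shared by all of the 6 genes.

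Of the 5 fibrillar collagens, which form the load-bearing fibrils of scar tissue, all were above background. Between mice, 2 differed by more than 1.5-fold (40%, against 12.9% of all genes). The chains of type I collagen, Col1a1 and Col1a2, were measured at 7.33, 7.94, 7.68 and 7.39 (1.52-fold) and at 6.75, 7.53, 7.52 and 7.08 (1.72-fold) in mice 1 to 4. For Col3a1, the chain of type III collagen, the values were 7.15, 7.63, 7.48 and 7.20 (7.37 ± 0.23, SD, n = 4 mice). All 3 chains were lower in mice 1 and 4 than in mice 2 and 3. After quantile normalization, mouse 4 in place of mouse 1 held the lowest Col1a1 value (7.37, against 7.42 in mouse 1) and the lowest Col3a1 value (7.19, against 7.23 in mouse 1), and 1 fibrillar collagen, Col1a2, exceeded 1.5-fold. The type V chains, which start the assembly of fibrils, did not share this order. Col5a1 had the smallest SD of the group, with 6.80, 6.81, 6.57 and 6.71. Col5a2 was highest in mouse 1, at 6.48, 6.00, 6.06 and 6.01, and the gap between mouse 1 and the other animals was larger than Dixon's 95% limit, a gap found in 2 of the 38 genes above background (5.26%) and in 5.75% of all genes above background. Col5a2 lies beside Col3a1 in the genome, and the 2 genes did not share an order of the mice.

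The 4 basement membrane collagens varied little, with a median SD of 0.11 and 0 genes over 1.5-fold. The type IV chains of the basement membrane network were at 7.00, 7.05, 6.94 and 7.07 (Col4a1) and averaged 6.75 ± 0.12 (Col4a2, SD, n = 4), with start sites 21 bases apart on opposite strands. Col15a1 averaged 7.13 ± 0.10 and Col18a1, the precursor of endostatin that hepatocytes also make, 8.81 ± 0.13 (SD, n = 4 each). Neither had its lowest value in mouse 1: both were lowest in mouse 2 (Col18a1 in mouse 3 after quantile normalization) and highest in mouse 1. Type VI collagen forms beaded filaments around cells. Its chains averaged 6.88 ± 0.20 (Col6a1), 6.84 ± 0.15 (Col6a2) and 6.69 ± 0.15 (Col6a3), and the fibril-associated Col14a1 averaged 8.38 ± 0.20 (SD, n = 4 each). Col6a1 was at 6.79, 7.18, 6.76 and 6.80, with mouse 2 set apart by Dixon's limit. Its genomic neighbour Col6a2 was highest in mouse 1 instead. Col6a3, with the smallest SD of its group, was measured at 6.48, 6.74, 6.82 and 6.70 and was lowest in mouse 1.

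Among the proteoglycans and glycoproteins, 3 of the 4 genes above background exceeded 1.5-fold (75%, against 12.9% of all genes). Besides Dpt and Sparc, this was Dcn, which encodes decorin, a small leucine-rich proteoglycan that binds collagen and TGF-beta. Without mouse 1, Dcn and Sparc no longer exceeded 1.5-fold. Dcn was measured at 10.74, 11.58, 11.63 and 11.25, a 1.86-fold range. Its relative and genomic neighbour Lum, the gene of lumican, was at 5.24, 6.41, 6.31 and 5.71 in mice 1 to 4 and missed the background limit in mouse 1 only. As for Dcn, mice 1 and 4 held the 2 lowest values of Lum, and its range is open because 1 of its values is not above background. Fn1, the gene of fibronectin, had the smallest SD of the group, with 11.57, 11.75, 11.78 and 11.82. After quantile normalization, the difference of Fn1 in mouse 1 from the other mice was -0.02, in place of -0.22 as deposited. For Dcn, the same difference was -0.57, in place of -0.75.

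The elastic fibre genes varied little. Elastin (Eln) was at 6.34, 6.33, 6.38 and 6.36, with an SD of 0.02, the smallest of the 38 genes. The lysyl oxidases cross-link collagen and elastin. Of these, Loxl1 averaged 5.68 ± 0.10, and Lox averaged 4.35 ± 0.10 (SD, n = 4 each) and was not above background in any mouse. Among proteases and inhibitors, Mmp2, the gelatinase that degrades basement membrane collagen, averaged 6.61 ± 0.18, and Mmp14, the membrane-bound protease that activates it, 7.78 ± 0.19 (SD, n = 4 each). The inhibitor Timp2 takes part in this activation. Its values were 6.13, 6.55, 6.72 and 6.49, a range just over 1.5-fold. Timp3, an inhibitor bound to the matrix, was at 6.85, 6.93, 7.02 and 7.20 and had the smallest SD of the group. All of these 4 genes were lowest in mouse 1, against 46.2% of all genes above background. Mouse 4 was next lowest in 2 of them, Mmp14 and Timp2, and highest in Timp3. Timp1, the inhibitor most often followed in liver fibrosis, averaged 5.15 ± 0.21 (SD, n = 4) and lay below the limit of every array.

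TGF-beta 1 (Tgfb1) averaged 6.74 ± 0.14 and TGF-beta 2 (Tgfb2) 5.50 ± 0.25 (SD, n = 4 each), the second above background in 2 of 4 mice. Tgfbi, which encodes a matrix protein induced by TGF-beta and also made by macrophages, was the gene of this group with more than 1.5-fold, at 7.80, 8.56, 8.59 and 8.16 in mice 1 to 4. Another target, Ctgf, averaged 7.01 ± 0.16 (SD, n = 4) and was highest in mouse 2. Thbs1, the gene of thrombospondin 1, which activates latent TGF-beta, was at 6.03, 6.02, 5.96 and 5.90 and had the smallest SD of the group. The 2 targets and the activator thus did not share an order of the mice. Of the PDGF receptors, Pdgfrb, the receptor of stellate cells and pericytes, was measured at 6.27, 6.68, 6.58 and 6.37, and Pdgfra averaged 6.42 ± 0.10 (SD, n = 4). Both were lowest in mouse 1 and next lowest in mouse 4.

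The contractile genes are used as signs of myofibroblasts. Acta2, the gene of alpha smooth muscle actin, was at 6.16, 6.63, 6.36 and 6.10 in mice 1 to 4, a 1.44-fold range that did not pass the limit. Tagln, which encodes the actin-binding protein SM22, averaged 6.27 ± 0.22 (SD, n = 4). Both were lower in mice 1 and 4 than in mice 2 and 3, although the lowest Acta2 value was that of mouse 4. Desmin (Des), the intermediate filament of quiescent stellate cells in rodents, was at 6.07, 6.02, 5.97 and 5.59. Its low value was that of mouse 4 alone. Vim, described above, had the largest SD of the 4 genes.

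Of the 5 stellate and pericyte markers above background, Lrat alone exceeded 1.5-fold (20%, against 12.9% of all genes). With median-centred arrays, 2 genes did so (40%, against 16.0% of all genes). Like Lrat, the extracellular glycoprotein gene Reln was lowest in mouse 1 and next lowest in mouse 4, with a mean of 7.85 ± 0.23 (SD, n = 4). Colec11, which encodes a collectin of innate immunity, was at 7.56, 7.52, 7.50 and 7.56, an SD of 0.03. Ecm1, a secreted regulator of TGF-beta activation that hepatocytes also make, averaged 8.78 ± 0.17, and Rgs5, a regulator of G protein signalling in pericytes, 7.11 ± 0.12 (SD, n = 4 each). For Colec11, Ecm1 and Rgs5, the pair of mice 2 and 3 was lowest, the opposite of Lrat and Reln. Hhip, which encodes a hedgehog-binding protein, was at 5.05, 5.05, 5.39 and 5.02, above background in mouse 3 only and set apart there by Dixon's limit.

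**Figure D3:**
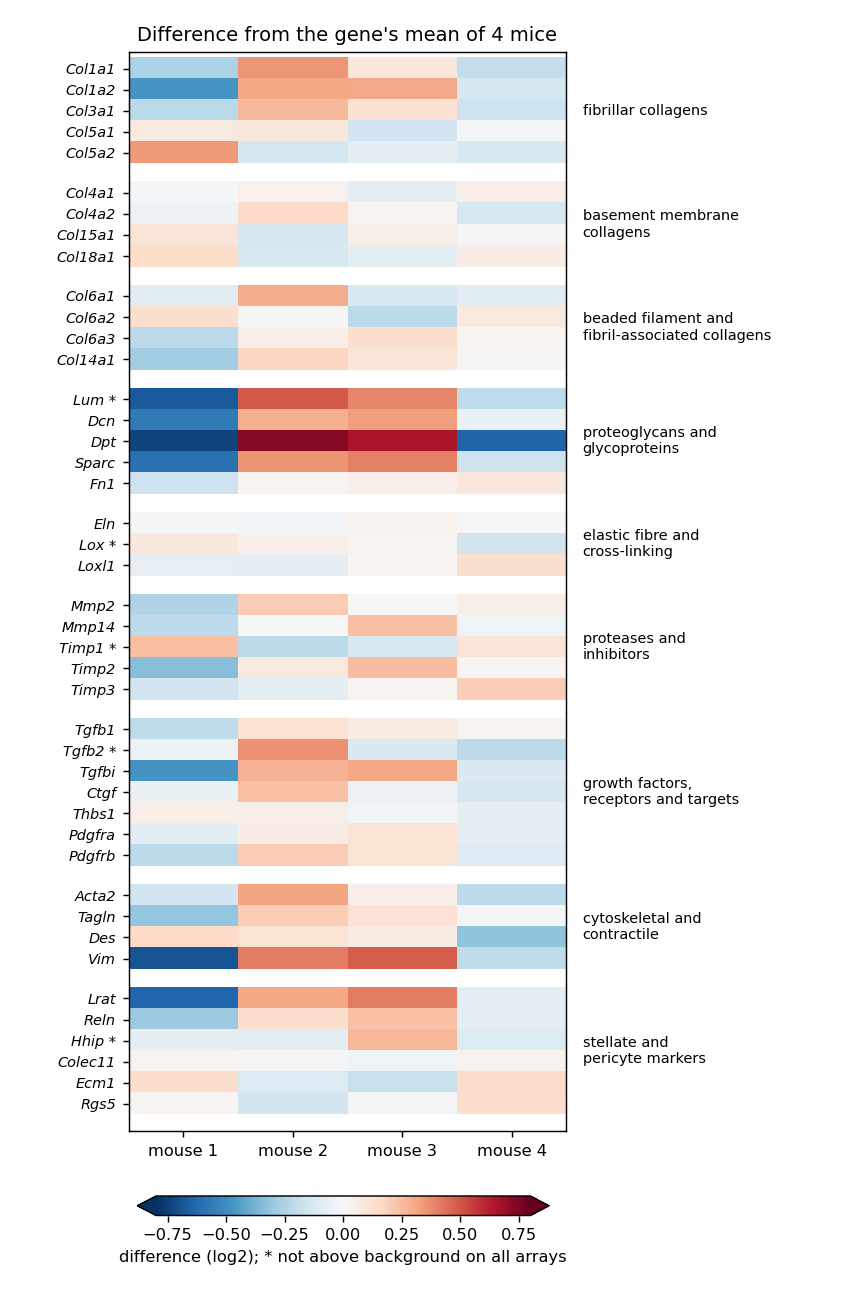
Difference of each mouse from the gene's mean of the 4 mice (log2, colour, blue lower and red higher) for the 43 measured genes (rows, by role) in mice 1 to 4 (columns). Asterisks mark the 5 genes not above background on all arrays. Dpt, Vim, Lrat, Sparc, Dcn, Tgfbi and Col1a2 are blue in mouse 1 and red in mice 2 and 3, whereas Col5a2 is red in mouse 1.

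Across the roles, the order of the mice was counted for all 38 genes after their values had been seen. Mouse 1 held the lowest and mouse 4 the next lowest value of 18 genes (47.4%), against 22.6% of all genes above background. After quantile normalization, these were 16 genes, against 18.2% of all genes. Irrespective of which of the pair was lowest, mice 1 and 4 held both low values of 21 genes (55.3%), against 29% of all genes, and after quantile normalization of 20 genes (52.6%), against 26%. The reverse, with mice 2 and 3 at the low end, held for 5 genes (13.2%), namely Col18a1, Col6a2, Colec11, Ecm1 and Rgs5, against 15.3% of all genes. The share with mice 1 and 4 at the low end thus exceeded that of all genes under both scalings, and the share of the reverse did not. Since the genes of 1 liver share its RNA and array, these counts are given without a test.

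Taken singly, mouse 1 held the lowest value of 21 of the 38 genes, against 46.2% of all genes, and of 19 after quantile normalization, against 36.1%. The lowest value was that of mouse 2 in 6 genes, against 18.7% of all genes, of mouse 3 in 6, against 16.5%, and of mouse 4 in 5, against 18.6%. As deposited, mouse 1 alone was thus lowest in more of the 38 genes (55.3%) than the other mice together, whereas after quantile normalization each side had 19. Mouse 1 was also the animal most often lowest over all genes under both scalings (46.2% and 36.1%), so much of this count is not particular to the 38 genes. At the other end, mouse 2 held the highest value of 14 genes, against 20.9% of all genes, and mouse 3 that of 11, against 31.4%. Mouse 1 was highest in 6 genes, against 22.8% of all genes, and mouse 4 in 7, against 24.9%. After quantile normalization, mice 1 to 4 held the highest value of 9, 17, 8 and 4 of the 38 genes, against 30.3%, 23.2%, 23.6% and 22.9% of all genes. Mouse 2 was thus the animal with the most high values among the 38 genes under both scalings, while over all genes this was mouse 3 as deposited and mouse 1 after quantile normalization.

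**Figure D4:**
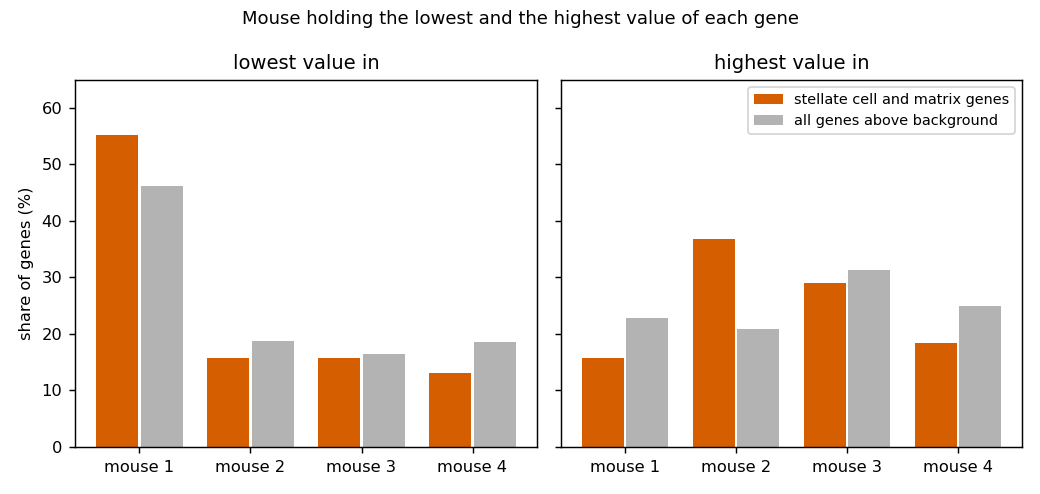
Share of genes (%) whose lowest (left) and highest (right) value is that of mouse 1, 2, 3 or 4, for the 38 stellate cell and matrix genes (orange) and all genes above background (grey). Mouse 1 holds the lowest value of 21 of the 38 genes, against 46.2% of all genes, and mouse 2 the highest value of 14 genes, against 20.9% of all genes.

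Each mouse was also set against the average of the remaining animals, gene by gene, and the median of these differences was taken over the 38 genes. It was -0.21, 0.15, 0.07 and -0.06 in mice 1 to 4, against -0.08, 0.03, 0.05 and 0.02 over all genes above background. After quantile normalization, it was -0.16, 0.14, 0.06 and -0.08, against -0.02, 0.01, 0.01 and 0.0015 over all genes. The median of the 38 genes thus lay below that of all genes in mouse 1 and above it in mouse 2 under both scalings. Over the 29 genes with at most 1.5-fold range, it was -0.09 in mouse 1 and 0.07 in mouse 2. After quantile normalization, these were -0.03 and 0.07. The 9 genes left out had been chosen by their range, and as deposited all were lowest in mouse 1. The median of mouse 1 therefore had to rise without them. Genes over 1.5-fold were not left out of the values over all genes, so the 29 genes have no like comparison here. By role, the differences in mouse 1 were -0.77 for the proteoglycans and glycoproteins, -0.31 for the cytoskeletal genes, -0.30 for the proteases and inhibitors and -0.29 for the fibrillar collagens. In contrast, they were 0.06 for the basement membrane collagens and 0.03 for the stellate and pericyte markers, with a sign that depended on the scaling: they were -0.02 and -0.05 with the arrays centred on their medians, and 0.15 and 0.12 after quantile normalization. The fibrillar collagens had -0.18 in mouse 1 after quantile normalization. Mouse 2 had 0.35 for the fibrillar collagens, 0.34 for the cytoskeletal genes and 0.43 for the proteoglycans and glycoproteins.

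**Figure D5:**
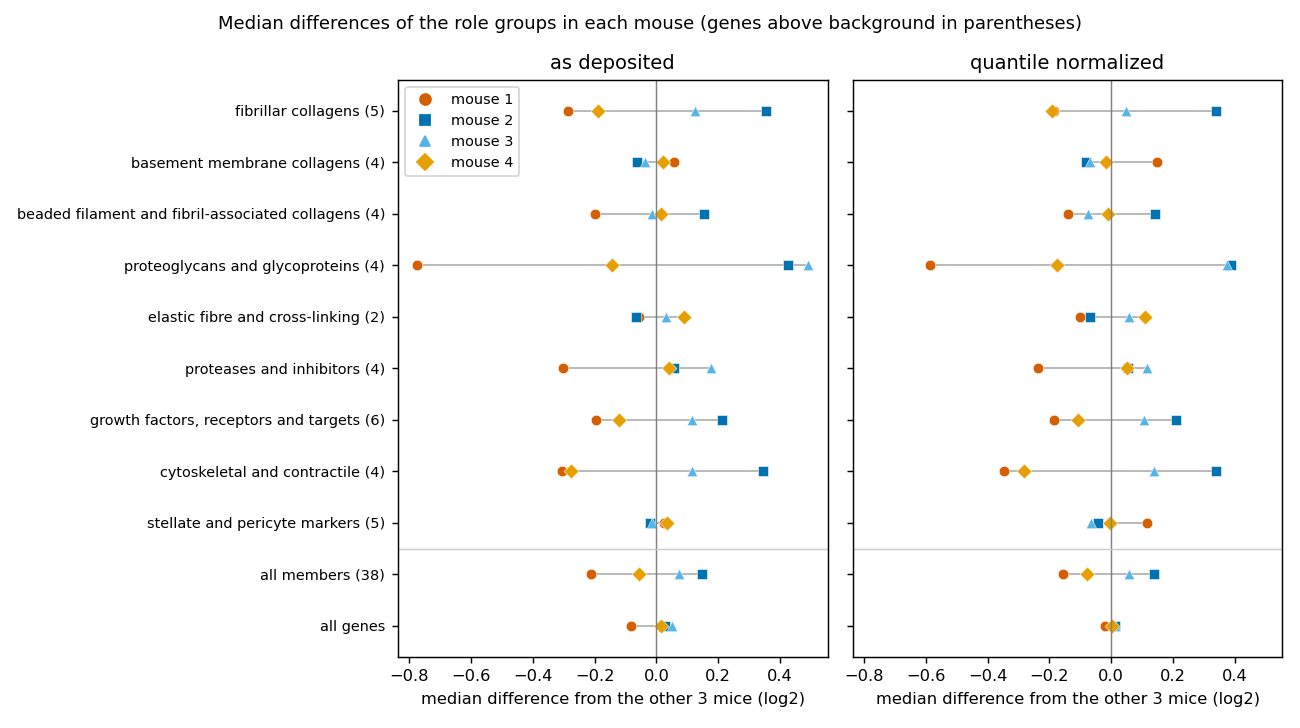
Median difference of each mouse from the average of the remaining 3 mice (log2, horizontal axis) over the genes above background of each role group, over the 38 stellate cell and matrix genes and over all genes (rows), with values as deposited (left) and after quantile normalization (right). Symbols stand for mice. In the proteoglycan and glycoprotein group, mouse 1 is at -0.77 as deposited and at -0.59 after quantile normalization.

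Further genes of the same pathways, not among the 44, were listed by function. Of 18 further stellate genes above background, 6 exceeded 1.5-fold between mice, against 12.9% of all genes. The widest was Itga8, an integrin chain of stellate cells, at 6.18, 6.81, 6.57 and 5.86 in mice 1 to 4. The chemokine gene Cxcl12 (7.98, 8.59, 8.64 and 8.20) followed the order of Lrat, and Gucy1a1, a subunit of the nitric oxide receptor (5.69, 6.34, 6.34 and 6.27), was low in mouse 1 only. Pth1r varied least, with an SD of 0.05. Gfap, Tcf21, Gucy1b1 and Nes were not above background. Of the 18 genes, 3 were lowest in mouse 1 and next lowest in mouse 4 (16.7%, against 22.6% of all genes), and in 8 these mice held both low values in either order (44.4%, against 29%). After quantile normalization, 3 in place of 6 of the 18 exceeded 1.5-fold, against 10.6% of all genes.

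Of 25 further matrix genes above background, 5 exceeded 1.5-fold (20%, against 12.9% of all genes). The largest SDs were those of Efemp1, a fibulin-type glycoprotein gene (6.54, 7.39, 7.45 and 7.13), Bgn, the gene of the proteoglycan biglycan (9.06, 9.95, 9.84 and 9.58), and Nid1, the gene of the basement membrane linker nidogen 1 (6.45, 7.12, 7.07 and 6.69). These 3 genes were lowest in mouse 1 and next lowest in mouse 4, and so were 5 of the 25 (20%), against 22.6% of all genes. The other 2 genes over 1.5-fold were the periostin gene Postn, which had this order, and the laminin chain gene Lamb1, which did not. The basement membrane proteoglycan gene Hspg2 varied least, with an SD of 0.07, and Tnc, Lama2, Mfap5, Ogn and Vcan were not above background. Of 12 genes of collagen processing, 1 exceeded 1.5-fold (8.33%, against 12.9% of all genes), the prolyl hydroxylase chain P4ha1 at 6.16, 6.98, 6.97 and 6.62. Next in SD were the lysyl hydroxylase Plod3 (0.22) and the lysyl oxidase Loxl4 (0.21), both highest in mouse 1, and least varied Plod1 (0.08). Plod2 was not above background.

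Of 19 genes of TGF-beta and PDGF signalling above background, 1 exceeded 1.5-fold (5.26%, against 12.9% of all genes), the signal transducer Smad2 at 6.36, 6.67, 6.99 and 6.75. Itgav, an integrin chain that activates latent TGF-beta, had an SD of 0.22, the inhibitory Smad7 one of 0.21, and Ltbp2, of the family of latent TGF-beta binding proteins, varied least (0.05). Tgfb3, Itgb8 and Pdgfd were not above background. Among 8 further matrix proteases above background, 2 exceeded 1.5-fold (25%, against 12.9% of all genes), both known from macrophages. The elastase Mmp12 was at 5.57, 6.63, 6.81 and 5.79, and the cathepsin Ctss at 7.98, 8.64, 8.75 and 8.16. The Mmp12 value of mouse 1 lay just above the background limit of that array (5.52). After quantile normalization, 1 of the 8 genes exceeded 1.5-fold, against 10.6% of all genes. The gelatinase Mmp9 followed with an SD of 0.19, and Plaur varied least (0.07). Not above background were Mmp3, Mmp7, Mmp8, Mmp10, Mmp13, Timp4, Plat, Plau and Ctsk.

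Markers of other cell types were examined in the same livers. Sinusoidal endothelium had 12 of 12 markers above background, 2 of them over 1.5-fold (16.7%, against 12.9% of all genes). Its median differences were -0.21, 0.03, 0.13 and 0.04 in mice 1 to 4. Its markers with the highest mean values, Ehd3 and Fcgr2b, averaged 9.12 ± 0.34 and 9.04 ± 0.27 (SD, n = 4 each), both lowest in mouse 1. Macrophages had 12 of 12 markers above background and 3 over 1.5-fold (25%, against 12.9% of all genes). Lyz2 averaged 9.28 ± 0.20 and Clec4f 8.55 ± 0.18 (SD, n = 4 each), and Clec4f was highest in mouse 1. Endothelial cells also make Sparc and type IV collagen, and macrophages Tgfbi and Vim, and the part of these cells in the results was not tested. Other cells that make matrix had markers above background at shares near that of all genes (61.5%) or below it, except for smooth muscle. Of the portal fibroblast markers, 6 of 10 were above background, with Thy1 at 6.24 ± 0.13 and Gli1 at 6.14 ± 0.21, while Cd34, Pi16, Dpep1 and Slit2 were not. Of 8 vascular smooth muscle markers, 6 were above background, including Mylk (7.74 ± 0.16) and Smtn (6.72 ± 0.15), and Cnn1 and Actg2 were not. Mesothelium had 3 of 8, with Krt8 (9.55 ± 0.08), which hepatocytes also make, and Upk3b (6.25 ± 0.17), and without Msln, Upk1b, Lrrn4, Gpm6a and Muc16. The order with mouse 1 lowest and mouse 4 next lowest was also seen in other lists. It was that of 6 of 10 hepatocyte genes (2 of 10 after quantile normalization), 6 of 8 further matrix proteases, 5 of 12 endothelial and 4 of 12 macrophage markers, and of 0 genes above background in the portal fibroblast, vascular smooth muscle and mesothelial lists, against 22.6% of all genes. After quantile normalization, 1 vascular smooth muscle marker had this order, against 18.2% of all genes.

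The remaining lists concern tissue outside the hepatic lobule. Their counts above background stand beside a share of 61.5% of all genes. Cholangiocytes had 3 of 8 measured markers above background, among them Sox9 (7.15 ± 0.17) and Krt7 (5.94 ± 0.09), and lacked Epcam, Cftr, Tspan8, Cldn7 and Pkhd1. Of the adipocyte markers, 5 of 7 measured were above background, including the lipid droplet gene Cidec (8.78 ± 0.29), which steatotic hepatocytes also express, and Lipe (6.52 ± 0.20), whereas the adipokine genes Adipoq and Lep were not. Skeletal muscle had 5 of 8, near the share of all genes, with Acta1 (6.85 ± 0.07) and Tnni2 (6.79 ± 0.24), and without Myh4, Mylpf and Myl1. Pancreatic acinar genes differed most between the mice. Of 12 measured, 10 were above background and all 10 exceeded 1.5-fold, against 12.9% of all genes. Their median differences were 1.27, -1.45, -1.04 and 1.09 in mice 1 to 4. The trypsin Try4 and the lipase-related Pnliprp1 were not above background on all arrays. Ctrb1 was at 9.49, 6.58, 7.14 and 9.01 and Cpa1 at 9.02, 6.31, 6.69 and 8.49, and the linear sum of the 10 genes was 3453, 780.2, 970.4 and 2853. Over the 38 stellate cell and matrix genes, the linear sum was 10294, 13693.5, 13832 and 12240.3. Thus the acinar genes were high in the mice in which Dpt, Vim, Lrat and Sparc were low, and their part in these results was not tested.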

How the data were processed

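Liver RNA of 4 aP2-SREBP-1c mice was measured on Mouse Gene 1.0 ST arrays, 1 array per mouse. The deposited values are log2 expression values, which the authors computed by RMA, with Affymetrix Expression Console named in the submitters' processing notes. Which arrays were normalized together and the genome build are not given in the sources used here. All 4 columns were matched to a mouse by label.

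Gene names came from the platform annotation. Of 35556 probe sets, 21789 had 1 symbol and were used, 1621 had several and 12146 were unnamed here. A gene with several probe sets (999 genes) was represented by the probe set of highest mean. Levels are single values, means and SDs on the log2 scale, and a range is the fold of the highest over the lowest mouse. Since the mice form 1 group, no test was made. The number of arrays limits the precision. Pairs of arrays shared identical values in 25 probe sets or fewer. Across the genes above background, mouse 1 correlated least with the other arrays (r = 0.974 to 0.982). Among mice 2 to 4, r was 0.986 to 0.993.

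All 44 genes were named, with single values for genes over 1.5-fold, for the least variable gene of each role, for Acta2, Col1a1, Col1a2, Col3a1, Lrat and Pdgfrb and for genes set apart by Dixon's gap. Of other pathway lists, the 3 most and the 1 least variable gene above background were named, and of cell type lists the 2 with the highest mean and those not above background. Lamb1, Postn and Cyp2e1 were named after their values were seen. The genes and lists were chosen with earlier results of these data known. Alternatives were median-centred and quantile-normalized arrays, other background limits, the mean of all probe sets, no filter, fewer genes, other measures of spread and leaving out each mouse. The steps were tested on simulated data. Python 3.11.15 with numpy 2.4.6, pandas 2.3.3 and matplotlib 3.10.9 was used.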

Additional observations from a re-analysis of the deposited data

Results flagged for a closer look

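In 3 of the 43 measured genes, 1 mouse lay farther from the others than Dixon's 95% limit for 4 values. Col5a2 was higher in mouse 1 by 0.45 than the mean of the other mice, Col6a1 was higher in mouse 2 by 0.39, and Hhip was higher in mouse 3 by 0.35 (log2). Of these, Hhip was above background in mouse 3 only. Chance exceeds this limit in about 1 of 20 groups, and 2 of the 38 genes above background (5.26%) and 5.75% of all genes above background did so. The background limit of mouse 1 (5.52) was also set apart from those of the other 3 arrays in this way.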

How the results depend on the processing

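The count of genes with more than 1.5-fold between mice changed most. It was 4 with a 2-fold limit and between 3 and 9 when 1 mouse was left out, with 3 genes without mouse 1. Leaving out a mouse gave a median SD between 0.15 and 0.20, with 0.15 without mouse 1, 38 to 39 genes above background and 23 to 24 genes lowest in mouse 1. The median differences then lay between -0.25 and -0.20 in mouse 1, 0.12 and 0.22 in mouse 2, 0.02 and 0.15 in mouse 3, and -0.16 and 0.01 in mouse 4, whose sign therefore depends on the mice used. Other settings were median centring, quantile normalization, the mean of all probe sets and background at the 90th or 99th percentile. No filter and leaving out genes that other liver cells also make were further settings. All kept the counts of the 38 genes above background, over 1.5-fold and lowest in mouse 1 within 1.5 times. Every median difference of the 38 genes moved by less than 0.16, the SD of the 4 median differences. Those of mice 2, 3 and 4 were themselves smaller than this limit, so it could not show that they held, although all 4 kept their signs. With these settings, 6 to 10 genes exceeded 1.5-fold. Counts within a role moved more: 1 in place of 2 fibrillar collagens exceeded 1.5-fold after quantile normalization, and 2 in place of 1 stellate and pericyte markers with median centring. The order of the mice and the scaling of the acinar genes were examined after seeing the data. The acinar differences had the same signs under both scalings. No paired analysis was possible because all animals belong to 1 group. With 4 arrays, a small difference between mice cannot be told from the error of 1 array, and levels near 5.5 are limited by background.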
